A study of Rattus norvegicus with 4 samples.

Results

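The genes described here serve vitamin D signaling and calcium uptake in the intestine. They are S100g, Vdr, Trpv6, Trpv5, Cyp24a1, Cyp27b1, Atp2b1, Casr and Calb1, 9 genes of the 26420 rows of a rat expression array. Of these, 6 had a value on all 4 arrays, whereas Trpv5, Cyp24a1 and Calb1 were blank on all 4. The genes were chosen by name, and those with a value on every array were compared. The list was drawn up with earlier results of these arrays known, in particular the fall of S100g. The differences of the 6 genes between the groups are therefore given as a description, without a p-value. Each of the 9 genes had a single row by name.

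Colon tissue of male rats was measured on one-color NimbleGen arrays, 2 in the control group and 2 in the mesenchymal stem cell transplantation (MSCT) group. The labels number the arrays of a group as replicates, which are taken here as separate animals. According to the methods of the study, the animals were Sprague Dawley rats, and colitis as a model of inflammatory bowel disease (IBD) was induced by instilling TNBS (2,4,6-trinitrobenzene sulfonic acid) in ethanol into the colon. MSCs that a virus had made to express green fluorescent protein were then given to the MSCT rats through the tail vein, and pieces covering the lesion were taken. The sample descriptions name the control animals normal rats, the study compares MSCT with IBD rats, and the series' own design text uses both names. If the controls were normal rats, colitis and transplantation cannot be told apart in any difference between the groups. Age is not given, and because the study's text names more than 1 day for the chips, no day is assigned here.

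Vitamin D is activated by the enzyme Cyp27b1, and the active hormone binds the vitamin D receptor Vdr, a nuclear receptor that pairs with a retinoid X receptor on DNA and switches on target genes. In absorptive cells of the intestine, these targets carry calcium from the lumen to the blood. The channel Trpv6 lets calcium in at the brush border, the small buffer protein S100g (calbindin-D9k) carries it through the cell, and the pump Atp2b1 exports it at the basal side. Cyp24a1, itself a target, breaks the hormone down.

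The buffer gene S100g was much lower in the MSCT group than in the control group, 8.58-fold on the scale of log2 means. The receptor gene Vdr was 1.68-fold lower, and the export pump Atp2b1 was 1.22-fold higher. The entry channel Trpv6, the activating enzyme Cyp27b1 and the calcium sensor Casr had arrays of both groups that overlapped. In total, 4 of the 6 genes had a lower mean in the MSCT group and 2 a higher mean. The median difference of the 6 genes was -0.56 on the log2 scale, and that of all 18350 measured rows was -0.02.

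**Figure D1:**
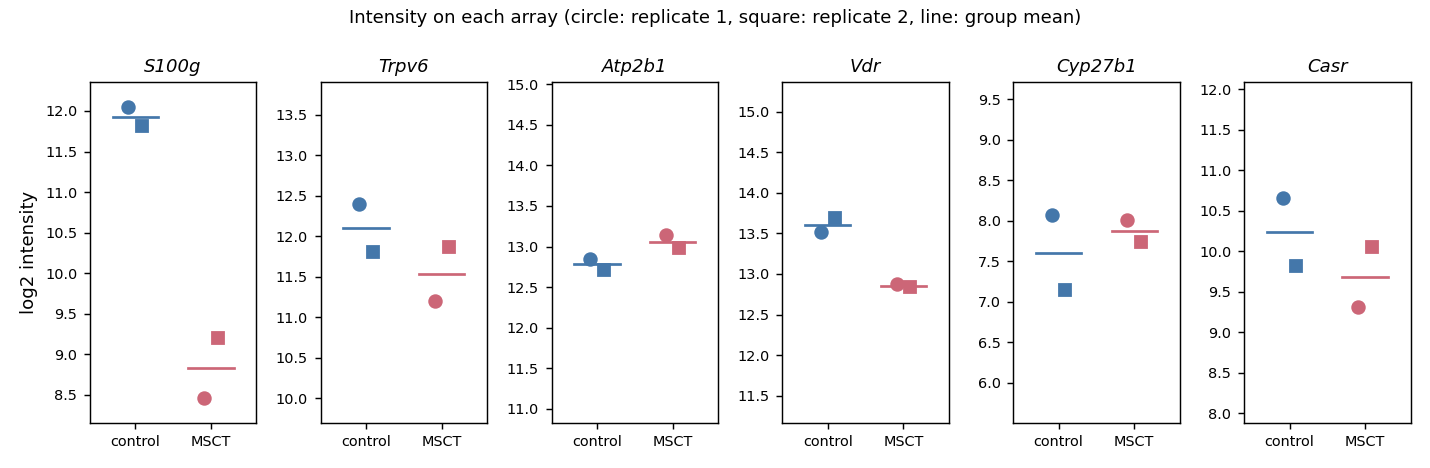
Log2 intensity of the 6 measured genes on each of the 4 arrays, with control arrays on the left and MSCT arrays on the right of each panel, replicate 1 as circles, replicate 2 as squares and the group mean as a line. Every panel spans the same number of log2 units around its own center, so distances can be compared between panels but heights cannot. The MSCT arrays of S100g lie at 8.46 and 9.20, far below the control arrays at 12.05 and 11.81.

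S100g (NM_012521, chromosome X) encodes the calcium buffer of absorptive cells. Control replicates 1 and 2 gave an intensity of 4233 and 3592, while MSCT replicates 1 and 2 gave 352 and 586. Both MSCT arrays lay far below both control arrays, with a gap of 2.62 on the log2 scale between the nearest arrays of the groups. On that scale the control group lay at 11.93 ± 0.17 (SD, n = 2) and the MSCT group at 8.83 ± 0.52 (SD, n = 2). The control replicates differed 1.18-fold and the MSCT replicates 1.67-fold. The difference between the groups was -3.10 (standard error 0.32), and 8.34-fold when linear means were used. It stayed between -3.47, without MSCT replicate 2, and -2.73, without MSCT replicate 1. Of all 18350 measured rows, 1 had a larger fall. In bulk tissue, fewer cells that express a gene and less of its RNA per cell cannot be told apart.

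Calb1 (NM_031984, calbindin-D28k), the larger calcium buffer best known from kidney and brain, was blank on all 4 arrays, and no level can be given for it.

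Trpv6 (NM_053686), which encodes the calcium entry channel, gave 5408 and 3564 as control intensities, against 2344 and 3727 in the MSCT group. MSCT replicate 2 lay just above control replicate 2, so the groups overlapped. On the log2 scale the groups lay at 12.10 ± 0.43 and 11.53 ± 0.47 (SD, n = 2 each), and the difference was -0.57 (standard error 0.35). The replicates of one group were 1.52-fold (control) and 1.59-fold (MSCT) apart, against 1.49-fold between the group means. Without MSCT replicate 1 the difference was -0.24, without control replicate 1 it was -0.27, without control replicate 2 it was -0.87, and without MSCT replicate 2 it was -0.91. The direction was thus the same in each case, and its size depended on single arrays.

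Trpv5 (NM_053787), the sister channel that serves calcium reabsorption in the kidney, was blank on all arrays. In the RefSeq gene table its gene is the direct neighbor of Trpv6 on chromosome 4, with 0 genes between them. The bases before the start of Trpv6 are shown because this gene is the point of entry for calcium. They lie at chr4:71489668-71489917 (GRCr8, minus strand) and are read 5′ to 3′, ending at the base before the start. A word that matches a half-site of the vitamin D receptor by its letters is in capitals.
Trpv6: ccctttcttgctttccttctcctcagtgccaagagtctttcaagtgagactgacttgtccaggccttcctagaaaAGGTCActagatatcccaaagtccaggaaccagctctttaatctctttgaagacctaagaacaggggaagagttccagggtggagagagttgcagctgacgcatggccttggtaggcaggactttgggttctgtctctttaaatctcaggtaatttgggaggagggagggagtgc

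Vdr (NM_017058, chromosome 7), the receptor itself, gave 11743 and 13236 as control intensities, against 7500 and 7307 in the MSCT group. Both MSCT arrays lay below both control arrays. The replicates were close in each group, with log2 means of 13.61 ± 0.12 for the controls and 12.85 ± 0.03 after MSCT (SD, n = 2 each). The difference was -0.75 (standard error 0.19), with a range from -0.84 to -0.67 when each array was left out. It was larger than the spread between replicates but stayed under the 2-fold limit of the study.

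The bases before the start of Vdr are shown because it is the receptor of the pathway and was lower on both MSCT arrays. They lie at chr7:130916758-130917007 (GRCr8, minus strand), again 5′ to 3′ and with a word that matches a half-site in capitals.
Vdr: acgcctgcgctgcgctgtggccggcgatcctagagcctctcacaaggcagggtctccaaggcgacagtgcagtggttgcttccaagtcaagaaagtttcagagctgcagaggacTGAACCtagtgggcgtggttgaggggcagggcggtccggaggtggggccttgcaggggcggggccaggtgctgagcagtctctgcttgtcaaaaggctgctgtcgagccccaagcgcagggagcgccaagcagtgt

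The half-site was searched as the word AGGTCA, its variant AGTTCA, the variant GGGTCA or the variant GGTTCA on both strands of the 250 bases before the start. The sequences are those of RefSeq for GRCr8, whose table held 6 of the 9 genes. S100g, Cyp24a1 and Calb1 were the other 3. The capitals in the Trpv6 sequence are the first of these words and begin 175 bases before the start. Those in the Vdr sequence read GGTTCA on the opposite strand and begin 136 bases before the start. Trpv5, Cyp27b1 and Casr each had 1 such word too, and Atp2b1 had 0. Since 39.1% of all 33469 promoters in the table hold at least 1 of these words, 5 of 6 genes is a description of their letters. The full element is a pair of half-sites as a direct repeat spaced by 3 bases. An exact pair of the words searched was in 0 of the 6 windows and in 31 (0.0926%) of all promoters. With a match this rare and a window of 250 bases, the 0 does not show that these genes lack such an element.

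Cyp27b1 (NM_053763), the enzyme that activates vitamin D, gave 269 and 141 as control intensities, against 258 and 213 in the MSCT group. The control arrays enclosed both MSCT arrays and were 1.90-fold apart. The difference of the means was 0.27 on the log2 scale (standard error 0.37), at 7.61 ± 0.66 against 7.87 ± 0.20 (SD, n = 2 each). Without control replicate 1 it was 0.73 and without control replicate 2 it was -0.20, so no direction can be given. This row belonged to the dimmest 25% of all rows, where the median SD between replicates was 0.47, against 0.14 in the brightest 25%.

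Cyp24a1 (NM_201635), the enzyme that degrades the active hormone and among the most responsive vitamin D targets in many tissues, was blank on all 4 arrays. How the table came to have blank rows is not given in the sources used here, so a blank is not a measured absence.

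Atp2b1 (NM_053311), which encodes the plasma membrane calcium pump, gave 7355 and 6713 as control intensities, against 9008 and 8099.8 in the MSCT group. Both MSCT arrays lay above both control arrays, by 0.14 on the log2 scale at the nearest point. The group means were 12.78 ± 0.09 and 13.06 ± 0.11 (SD, n = 2 each), and their difference was 0.28 (standard error 0.19). This is opposite in sign to S100g. With each array left out it lay between 0.21 and 0.36.

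Casr (NM_016996), the receptor that senses extracellular calcium, gave 1613 and 900.2 as control intensities, against 635 and 1064 in the MSCT group. MSCT replicate 2 was above control replicate 2, and the groups overlapped. The difference was -0.55 (standard error 0.42), from 10.23 ± 0.59 to 9.68 ± 0.53 on the log2 scale (SD, n = 2 each). Leaving out control replicate 1 gave -0.13, control replicate 2 -0.97, MSCT replicate 1 -0.18 and MSCT replicate 2 -0.92. Casr and Trpv6 had the same order of arrays, with control replicate 1 highest and MSCT replicate 1 lowest.

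**Figure D2:**
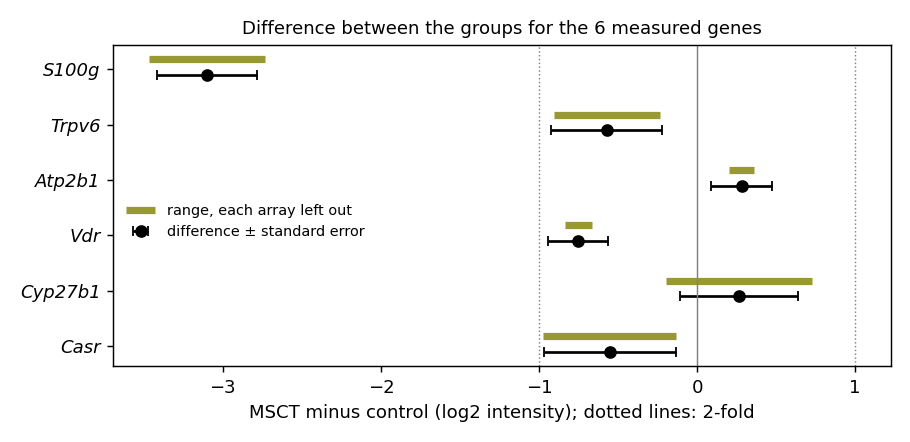
Difference between the MSCT and the control group in log2 intensity for the 6 measured genes. Points are differences with their standard error from the limma fit, thick lines span the differences with each of the 4 arrays left out in turn, and dotted lines mark a 2-fold change. S100g lies at -3.10, beyond the 2-fold line, and the line of Cyp27b1 crosses 0.

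The p-values of this comparison reflect the spread between these 4 arrays. Differences were fitted with limma, which pools information on variance across rows, over all 18350 measured rows. The screen took its thresholds from the study's methods, an unadjusted p under 0.05 and a change of over 2-fold, and was applied to limma's p. It was passed toward lower values by 1 of the 6 genes (S100g) and toward higher values by 0. Of all measured rows, 2.51% passed it lower and 2.12% higher in the MSCT group. In 3 of the 6 genes there was no overlap between the groups, lower for S100g and Vdr and higher for Atp2b1. Over all rows this was so in 24.5% toward lower and 21.3% toward higher values. Since S100g was known to have changed when the genes were listed, nothing is read from these shares. No row of the whole table had an adjusted p under 0.05 with limma's default settings (smallest adjusted p = 0.257) or with the methods' t-test (smallest 0.0550), while 2196 rows had an unadjusted p under 0.05 with limma. With 2 arrays against 2, an exact permutation test, 2-sided, gives at best 0.333. Calls under 0.05 therefore depend on an assumed distribution of the values, and with limma also on the variance shared across rows.

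By Euclidean distance over the 4 arrays, with log2 values centered on the control mean of each gene, the named genes most like S100g were Zp2 (distance 0.84), Slc36a1 (1.15), Dnase1 (1.33), Ngb (1.41) and Tmem35a (1.43). These were lower in the MSCT group by construction of the measure. Their differences were -2.58, -2.46, -2.24, -2.22 and -2.11, all smaller in size than that of S100g. Slc36a1 encodes a transporter of small amino acids, Dnase1 a secreted nuclease and Ngb a globin of neurons.

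The wider pathway was described with 6 lists of 122 genes in all, written by function, of which 70 had a value on all arrays, 20 were blank and 32 had no row by name. Of the 70 genes, 6 passed the limma screen toward lower values (8.57%, against 2.51% of all rows) and 3 toward higher values (4.29%, against 2.12%). The median difference of the 70 genes was -0.05, next to -0.02 for all rows. Alpi, Fkbp5 and Tsc22d3 were listed with their differences known, and without them 5 of 67 genes passed lower and 1 higher. Since all 6 lists were written with earlier results of these arrays known, nothing is read from these shares. An adjusted p under 0.05 was reached by 0 of the 70 genes, with limma as with the methods' t-test. An unadjusted limma p under 0.05 was reached by 14 of the 70 genes and by 2196 (11.97%) of all 18350 rows. Nothing is read from this comparison either, for the same reason. The methods' t-test in place of limma passed 5 of the 70 genes, 4 of them lower, and 388 of all 18350 rows.

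The list of plasma membrane calcium channels and transporters also holds the mitochondrial exchanger Slc8b1. In this list 2 of 12 measured genes passed the screen, both channels of the Trpv family and both lower in the MSCT group. Trpv3, a warmth-activated cation channel, gave 1873 and 2153 as control intensities, against 659 and 521 in the MSCT group (difference -1.78, standard error 0.22). Trpv1, the capsaicin receptor of sensory neurons, gave 525 and 402, against 149.7 and 128 (difference -1.73, standard error 0.23). Both had a limma adjusted p of 0.257, and Trpv1 belonged to the dimmest 25% of rows. Trpv2 and Trpv4 were blank. Slc8b1, a sodium and calcium exchanger of this family list that works in mitochondria, differed by -0.998 (standard error 0.21), just under the 2-fold limit, and passed it after quantile normalization (-1.01) and without control replicate 2 (-1.10) or MSCT replicate 2 (-1.11). Atp2b4, another calcium export pump, differed by -0.64 (standard error 0.20), against 0.28 for its relative Atp2b1. With the mitochondrial Slc8b1 counted, the median of this list was -0.46, and -0.70 without control replicate 2. It is thus not a median of plasma membrane genes alone.

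In the list of vitamin D supply and receptor partners, 7 of 9 measured genes had a lower mean in the MSCT group, with a median difference of -0.35. Only Cyp27a1, a sterol hydroxylase that can also act on vitamin D, passed the screen. Its control intensities were 1162 and 1583, those of the MSCT group 415 and 840.2, and the difference was -1.20 (standard error 0.41, limma adjusted p = 0.394). This call was lost without control replicate 1 (-1.42), control replicate 2 (-0.98) or MSCT replicate 1 (-0.69), and with the methods' t-test. Dhcr7, which diverts the vitamin D precursor to cholesterol, differed by -0.61, the xenobiotic receptor Nr1i2 by -0.48 and Rxra, a partner of Vdr on DNA, by -0.50, with standard errors of 0.22, 0.18 and 0.20. Groups did not overlap in 5 of the 9 measured genes toward lower and in 1 toward higher values. Over all rows this was so in 24.5% and 21.3%. The genes named here are among the 5, but they were picked for a low p. Lrp2 and Cubn, the uptake receptors for vitamin D bound to its carrier, were blank.

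Of 13 measured vitamin D target genes outside the main list, 10 had a higher mean in the MSCT group, with a median difference of 0.17. Alpi, intestinal alkaline phosphatase of the brush border, was the single gene past the screen. Its intensity rose from 370.4 and 659 to 1521 and 1099.7 (difference 1.39, standard error 0.37, limma adjusted p = 0.330), and the call was lost without control replicate 1 (0.97) or MSCT replicate 1 (1.15) and with the methods' t-test. Abcb1a, a drug efflux pump, differed by 0.76 and Tnfsf11, a ligand of bone-resorbing cell precursors, by 0.89, and neither reached 2-fold. The cell cycle inhibitor Cdkn1a differed by -0.34.

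Among intracellular calcium stores and buffers, Calb2 was the only one of 14 measured genes past the screen. Calb2 encodes calretinin, a calcium buffer of enteric neurons. Its control arrays lay far apart, at 4097 and 1842, with the MSCT arrays at 724 and 901. The difference was -1.77 (standard error 0.44, limma adjusted p = 0.324), and -1.19 without control replicate 1. It did not pass the screen by the methods' t-test. The reticulum chaperone Calr (0.37), the release channel Itpr3 (0.35) and the reticulum pump Atp2a3 (0.28) did not pass, and Pvalb was blank.

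In the list of hormones of calcium and phosphate and of phosphate transport, 1 of 15 measured genes passed the screen toward higher and 1 toward lower values, while 6 had a higher and 9 a lower mean in the MSCT group. Slc20a1, a sodium-dependent phosphate transporter, fell from 18946 and 16825 to 8193 and 8820.5 (difference -1.07, standard error 0.19, limma adjusted p = 0.267), and came to -0.98 without control replicate 1, just short of 2-fold. Slc34a2, the phosphate transporter of the brush border, rose from 69.9 and 113 to 177 and 269 (difference 1.30, standard error 0.36, limma adjusted p = 0.338). Its row was among the dimmest 25%, and the call was lost without control replicate 1 (0.95), without MSCT replicate 2 (0.997), with a pseudocount of 50 (0.95) or with the methods' t-test. Parathyroid hormone (Pth) differed by 0.41 and the G protein Gnaq by -0.29.

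In the list of other regulators of S100g, which also holds Fkbp5 and Tsc22d3 as targets of the glucocorticoid receptor, 7 genes were measured. Fkbp5 rose and Tsc22d3 fell. Both were listed with their differences known, so nothing is read from their opposite directions. A part of the glucocorticoid receptor in them was not tested. Fkbp5 gave 79.3 and 124 as control and 707 and 533 as MSCT intensities (difference 2.63, standard error 0.31, limma adjusted p = 0.257). The row of Fkbp5 belonged to the dimmest 25% of rows. Tsc22d3 gave 5415 and 6264, against 2529 and 2633 (difference -1.17, standard error 0.19, limma adjusted p = 0.260). The estrogen receptor Esr1, which drives S100g in the uterus, differed by -1.84 with a standard error of 0.94, and its control arrays lay far apart, at 1063 and 163. The mineralocorticoid receptor Nr3c2 differed by -0.42, and Esr2 and Pgr were blank.

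**Figure D3:**
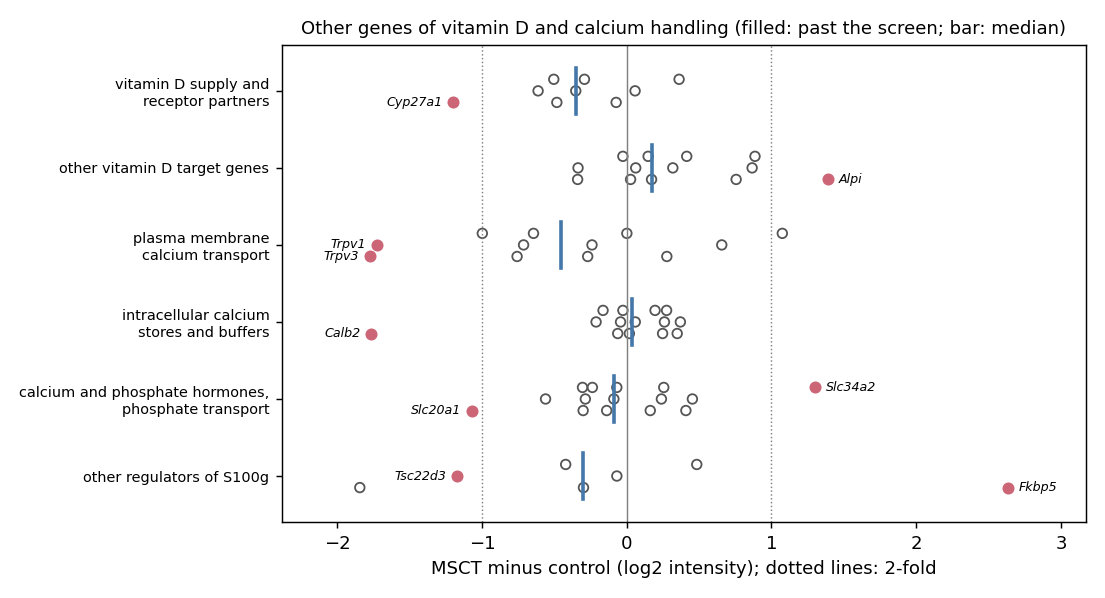
Difference between the MSCT and the control group in log2 intensity for the 70 measured genes of the 6 wider lists, 1 point per gene. Filled and named points passed the screen (unadjusted limma p under 0.05 and over 2-fold), bars are list medians and dotted lines mark a 2-fold change. Trpv1, Trpv3 and Calb2 lie farthest to the left of the named points and Fkbp5 farthest to the right.

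Markers of the cell types in a colon piece were compared in the same fit, to show what else moved beside S100g. The 10 measured epithelial markers, with Epcam and Krt8 among them, differed by between -0.08 and 0.46 with 0 past the screen, and their summed intensity was 204963 to 207725 on the control arrays and 224038 to 230473 on the MSCT arrays. For 10 markers of absorptive colonocytes, differences lay between -0.73 and 0.68 with 0 past the screen, and sums were 90746 to 102703 and 107116 to 114504. The 5 measured smooth muscle markers differed by between -0.04 and 0.08, with sums of 141287 to 171485 and 154976 to 159204. Within the colonocyte list the directions were mixed. Groups did not overlap in 4 genes with a lower mean in the MSCT group, Scnn1a (-0.73), Ceacam1 (-0.58), Slc26a2 (-0.42) and Aqp8 (-0.30). They also did not overlap in 3 genes with a higher mean, Slc9a3 (0.68), Car4 (0.35) and Slc26a3 (0.22). Over all rows this was so in 24.5% toward lower and 21.3% toward higher values. In the epithelial list it was so in 6 of 10 genes, all with a higher mean. The colon genes Car4, Slc26a3 and Aqp8 that would mark the labeled tissue were all measured and in the brightest 25% of rows.

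Markers of small intestinal enterocytes, which also use S100g, included genes with the opposite direction to S100g. Of 7 measured, 6 had a higher mean in the MSCT group and 3 of these passed the screen, with sums of 8018 to 12541 on the control and 16238 to 16721 on the MSCT arrays. The 3 were Fabp1 (4.01), Fabp2 (3.38) and Apob (1.11). Fabp2 had control arrays at 94.4 and 520, differed by 2.15 without control replicate 1 and by 4.61 without control replicate 2, and did not pass by the methods' t-test. Apob did not pass by the methods' t-test, with a pseudocount of 50 (0.956) or without MSCT replicate 1 (0.81). Slc5a1, the glucose transporter of the brush border, was the 1 gene of the list with a lower mean, at -0.45 and without overlap between the groups. All 5 measured leukocyte markers had a higher mean in the MSCT group (median difference 0.88), 3 of them without overlap between the groups. Only the macrophage gene Cd68 (1.29) passed the screen, and sums were 9861 to 12834 and 19732 to 22550.1. Of 6 measured fibroblast markers 0 passed, with sums of 39717 to 55472 and 61312 to 65838. Their mean was higher in 5, with 3 of these not overlapping, and lower in 1. Over all rows, groups did not overlap toward higher values in 21.3%. None of the measured markers was at 0, 3 leukocyte markers were blank and 15 markers of all lists had no row by name. Their part in the differences of the calcium genes was not tested.

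**Figure D4:**
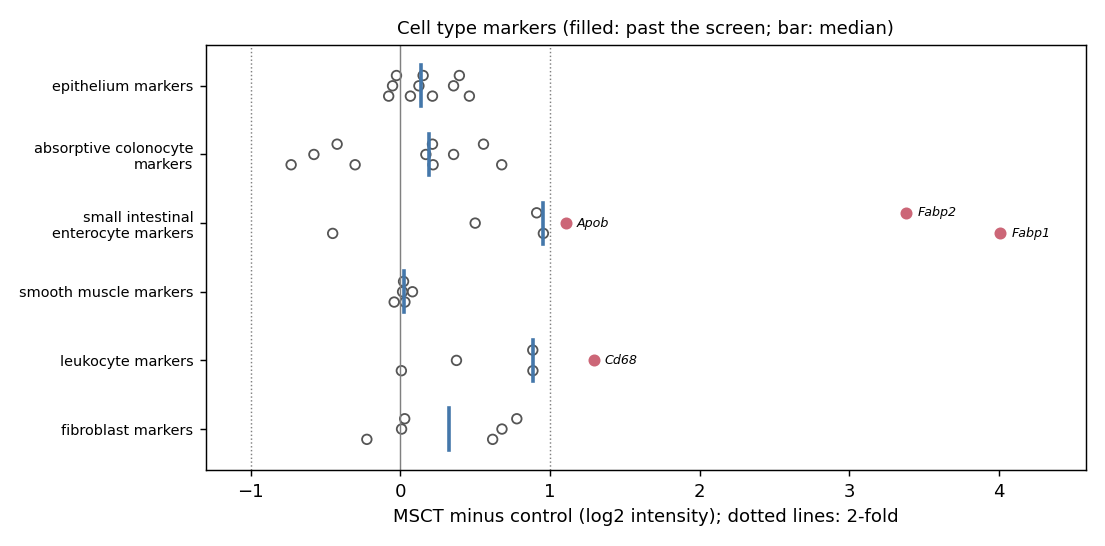
Difference between the MSCT and the control group in log2 intensity for the measured genes of 6 marker lists, 1 point per gene. Filled and named points passed the screen, bars are list medians and dotted lines mark a 2-fold change. Epithelial and smooth muscle markers lie close to 0, and Fabp1 and Fabp2 lie at 4.01 and 3.38.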

How the data were processed

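Total RNA of colon tissue was copied into cDNA, labeled with Cy3 and hybridized to NimbleGen arrays. After a GenePix scan and extraction in NimbleScan, the authors deposited a linear intensity for each RefSeq transcript on each array. RMA is named in the submitters' processing notes. Further details of background correction, scaling and the rule for blank rows are not given in the sources used here. Of 26420 rows, 18350 were measured on all 4 arrays and 8070 (30.5%) were blank throughout. Array medians lay between 848 and 893 and differed by at most 0.07 on the log2 scale. Precision is limited by how few arrays there are.

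Intensities were used as log2 values without a pseudocount, further scaling or a filter. The lmFit and eBayes functions of limma 3.58.1, run in R 4.3.3, compared MSCT with control over all measured rows, with Benjamini-Hochberg adjustment over all of them, and was tested on simulated data. The methods give one-way analysis of variance without naming the chips, and for 2 groups this is called the methods' t-test. With its p-values the screen passed 388 rows, the number of genes the study reports, against 850 with limma. Row names came from the GRCr8 gene table of RefSeq (7068 of the measured rows, 38.5%), used for names and neighbors only, with the row of highest mean where a gene had several. Promoters were searched and figures drawn with Python 3.11.15, pandas 2.3.3 and matplotlib 3.10.9. The genes described and the lists were chosen with earlier results of these data known. Named are the 9 genes, the genes of each wider list past the screen (with those of lowest p up to 4 a list), the 5 genes closest to S100g, and up to 3 markers a list and direction. Epcam, Krt8, Car4, Slc26a3, Slc9a3, Aqp8, Scnn1a, Ceacam1, Slc26a2, Slc5a1 and the blank genes outside the 9 were named after their values were seen. Alternatives were 2 normalizations, 2 filters, another variance model, the methods' t-test, a pseudocount of 50, the replicate number as a block and leaving out each array. A count without 3 genes of known difference was added after seeing the data. The labels number the samples of a group as replicates, and these were taken as separate animals.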

Additional observations from a re-analysis of the deposited data

How the results depend on the processing

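S100g was the 1 gene of the 6 past the screen in the main setting. The same held with both normalizations, both filters, the other variance model, the methods' t-test, the pseudocount and the replicate block. With each array left out its difference lay between -3.47 and -2.73. S100g was listed with its fall known, and all settings reuse the same 4 arrays, so nothing is read from its calls. The count of genes whose groups did not overlap was 3 under both normalizations. Counts past the screen in the wider lists are given here without the share of all rows, and nothing is read from them. The count of 9 in these lists became 5 without the dimmest 50% of rows (43 genes tested) and 5 with the methods' t-test. It lay between 6, without control replicate 1, and 14, without control replicate 2, when each array was left out, and 8 of the 9 genes were among the 14. Such a fit leaves 1 group with a single array, which is assumed to vary like the other group, so its calls are no support of their own. With the replicate block it was 10. The numbers are shared by the labels without a stated pairing, and the deviations of same-numbered arrays correlated at 0.23 across rows, with 2 pairs. With limma's shared variance made both intensity-dependent and robust to outlying rows, 6 of the 70 wider genes had an adjusted p under 0.05 (387 rows in all). These 2 options were turned on together. Without the dimmest 50% of rows, 4 of 43 wider genes had a limma adjusted p under 0.05 (247 rows in all). The cause of these changes was not tested. The difference of Cyp27b1 changed sign without control replicate 2 (-0.20). The median of the stores and buffers list was 0.24 and that of the hormone list -0.38 without control replicate 2, against 0.04 and -0.09. In the dimmest 25% of rows the median SD between replicates was 0.47, against 0.14 in the brightest 25%.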
